A study of Mus musculus with 12 samples.

Results

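The genes described here encode the chaperone, the hydroxylases and the crosslinking enzymes that turn newly made collagen chains into stable fibres. They are Serpinh1, P4ha1, P4ha2, P4ha3, Plod1, Plod2, Plod3, Lox, Loxl1 and Loxl2, which were found by name in the gene table and are 10 of its 45706 genes. The members were selected on values measured in these same libraries, namely low Serpinh1 and Lox levels in sorted cells and higher hydroxylase levels in hypoxia. Levels, fold changes and differences of fold changes of the members are therefore a description and are not used as a test. Calls of members below only mark which values passed the thresholds of the fit, and nothing is concluded from them. All 10 members passed the filter for testing, a mean of at least 0.1 TPM (transcripts per 1000000, a length-corrected unit) over the 12 libraries, together with 18909 genes in all. Every member also had a mean above that minimum within each group, the lowest being 0.137 TPM for Lox in sorted normoxic cells.

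Collagen chains are modified in the endoplasmic reticulum before they fold into a triple helix. Prolyl 4-hydroxylases, each made of a P4ha subunit and the shared P4hb subunit, hydroxylate proline and so allow the helix to be stable at body temperature, while lysyl hydroxylases, encoded by Plod genes, modify the lysines later used for crosslinks. Serpinh1 encodes HSP47, a collagen-specific chaperone that binds the folded helix, and the secreted lysyl oxidases Lox, Loxl1 and Loxl2 crosslink collagen and elastin outside the cell; the hydroxylases and oxidases use molecular oxygen, and several of their genes are well known targets of hypoxia-inducible factors.

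RNA was sequenced from BN1, a single cell line derived from a murine hepatoblastoma (HB), a liver cancer of childhood. The tumor had been driven by an in-frame deletion mutant of β-catenin (B) and a missense mutant of NRF2 (N), with Crispr/Cas9 targeting of Cdkn2a exon 2, and these changes were shared by all groups. The cells also carried EGFP under the Tie2/Tek promoter, and stably transfected clones had been pooled. There were 4 groups of 3 libraries. Unsorted cells were kept in normoxia (UN) or exposed to 1% oxygen for 2 days (UH). Sorted cells were the EGFP-positive fraction recovered by flow cytometry after 2 days of hypoxia, then grown in normoxia for about 10 days (SN), or such cells returned to 1% oxygen for 2 days (SH). The sample labels call all 12 libraries EGFP-positive BN1 cells. Sorted cells thus differ from unsorted ones by reporter level, by earlier hypoxia and by the expansion, and these cannot be told apart. The study calls the 3 libraries of a group independent, and the labels do not say whether they came from separate cultures, so p-values measure only the spread between these libraries, which may be technical. TPM keeps no depth, so the number of reads behind each value is unknown.

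Cdkn2a, the targeted gene, had 196, 327 and 272 TPM in UN replicates 1 to 3, 78.7, 77.1 and 66.4 in UH, 12.6, 10.4 and 16.5 in SN, and 7.37, 9.32 and 8.69 in SH. A gene-level value includes transcripts with a mutated exon and does not measure the edit. Tek, whose promoter drives the reporter, had 0.133, 0.124 and 0.141 TPM in UN, 0.158, 0.226 and 0.0853 in UH, 2.69, 2.70 and 2.07 in SN, and 3.29, 3.00 and 2.83 in SH. All 6 sorted libraries lay above all 6 unsorted ones for Tek. Transcripts of the α subunits of hypoxia-inducible factors were present in each group. Hif1a had a mean of 118 ± 12.6 TPM (SD, n = 3) in UN, 103 ± 33.8 in UH, 66.0 ± 9.71 in SN and 46.6 ± 9.07 in SH, while Epas1 had 5.83 ± 2.68, 3.42 ± 0.869, 1.10 ± 0.337 and 0.669 ± 0.250.

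UN replicate 1 stood apart from UN replicates 2 and 3. Its mean Pearson correlation with the other libraries of its group was 0.9775, against 0.984 and 0.9837, on log2(TPM + 1) across genes, which are not independent replicates. Its fibrillar collagen chains summed to 4238 TPM, against 1121 and 959.3. The mesenchymal and stellate markers summed to 3323 TPM in it, against 2302 and 2157, and the hepatoblast and hepatocyte markers to 138.0 TPM, against 312 and 331. Calls of members and numbers of calls in the gene lists that change without this library are also given below without it.

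Fold changes below are differences of log2(TPM + 1), which understate changes of genes near or under 1 TPM, from limma with 1 mean for each group. Calls of higher or lower needed an adjusted p (Benjamini-Hochberg, over the 18909 genes) under 0.05 and a change of more than 1 on the log2 scale. In UH vs UN, 7 members were called higher (P4ha1, P4ha2, Plod1, Plod2, Plod3, Lox and Loxl2) where 5.46% of all genes were, and P4ha3 was called lower where 11.8% were. In SH vs SN, 5 members were called higher (P4ha1, P4ha2, Plod1, Plod2 and Loxl2), with 7.47% of all genes called higher and 4.998% called lower. Between sorted and unsorted normoxic cells, 7 members were called lower in SN (Serpinh1, P4ha2, P4ha3, Plod1, Lox, Loxl1 and Loxl2), beside 3.20% of all genes called higher and 7.57% called lower. In hypoxia the same 7 and Plod3 were called lower in SH than in UH, beside 7.65% and 5.35% of all genes. These contrasts were used in choosing the members, and nothing is read from the counts. For the gene lists below, the lowest and the highest number of calls over the alternatives, which include other pseudocounts, filters and scalings and each library left out, are given where the number moved by more than 1.5 times or to or from 0.

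The median log2 fold change of the members was 1.87 for UH vs UN, 0.90 for SH vs SN, −2.16 for SN vs UN and −1.75 for SH vs UH. Over all genes tested it was −0.19, 0.03, −0.06 and 0.17. The 3 libraries of a group did not overlap the 3 of the other for 9 members in UH vs UN (51.1% of all genes), 9 in SH vs SN (56.8%), 8 in SN vs UN (49.0%) and also 8 for SH vs UH (51.7%). P4ha1 and Plod2 in SN vs UN, and Loxl1 in UH vs UN, overlapped through UN replicate 1 alone. The comparisons share groups, so their counts are not independent of each other. With median-of-ratios scaling the all-gene median was 0 instead of −0.19 in UH vs UN and 0.03 instead of 0.17 in SH vs UH, and the share of calls in UH vs UN that were higher was 56.2% instead of 31.7%. With the same scaling the share of higher calls was 43.6% instead of 58.8% in SH vs UH, and with quantile normalization it was 42.5% instead of 29.7% in SN vs UN. Each member called in these 4 comparisons kept its sign under both scalings.

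**Figure D1:**
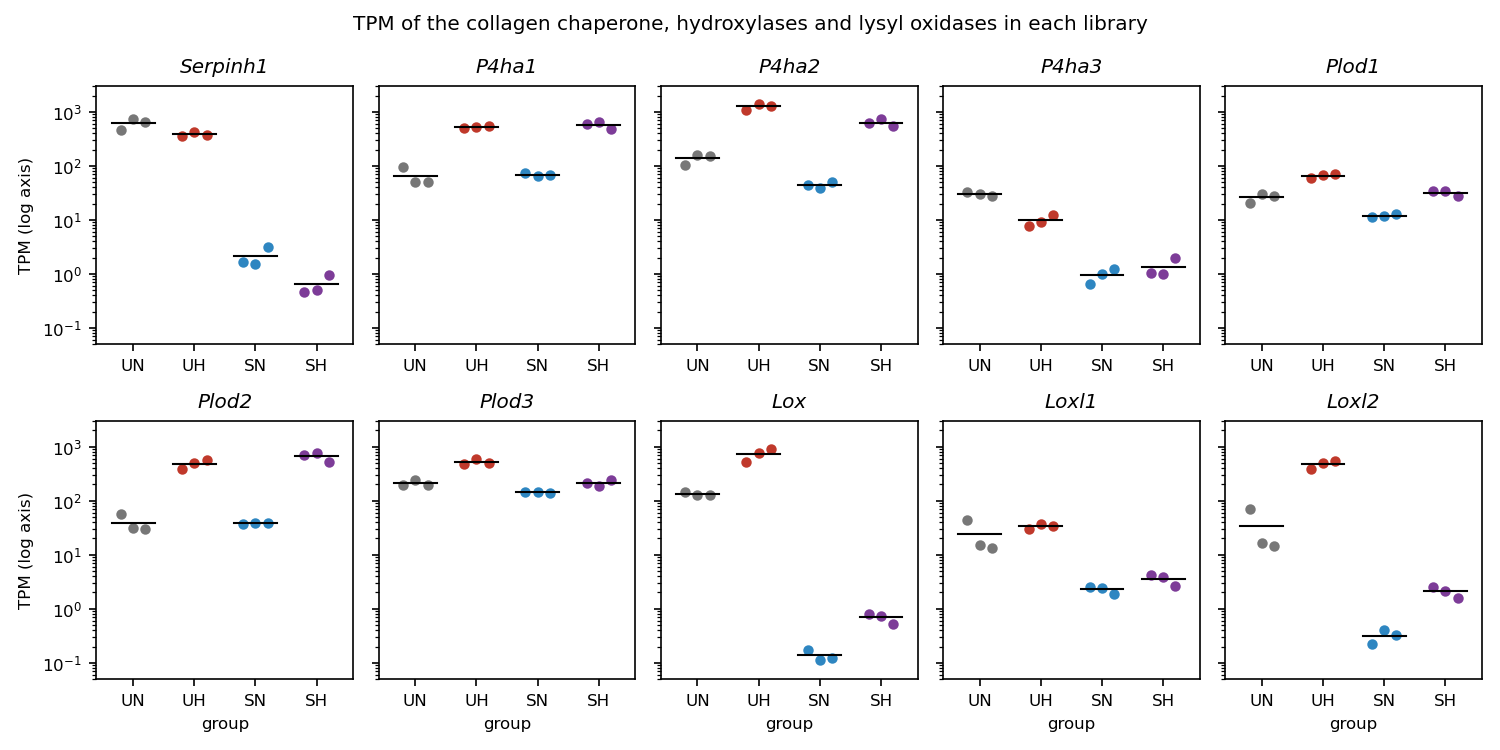
TPM of each of the 10 genes on a log axis, with a point for each of the 3 libraries of a group (replicates 1 to 3 from left to right) and a bar at the group mean. Serpinh1 and Lox lie above 100 TPM in UN and UH and at or below 3.14 TPM in SN and SH, whereas P4ha1 and Plod2 are high in UH and SH.

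Serpinh1 was the most abundant of the 10 genes in UN and the least abundant in SH. Its values in replicates 1 to 3 were 461, 726 and 640.3 TPM in UN, 362, 419.6 and 374 in UH, 1.69, 1.56 and 3.14 in SN, and 0.467, 0.510 and 0.944 in SH. The order of the groups was UN, UH, SN and SH, with no overlap between neighbours, although the gap between UN replicate 1 and UH replicate 2 was small beside the gap between unsorted and sorted cells. The ratio of mean TPM was 286 for UN over SN and 602 for UH over SH, and the log2 fold change was −7.62 for SN vs UN and −7.89 for SH vs UH (SE 0.208). Without UN replicate 1 the first was −7.80. In these bulk samples, fewer cells with the transcript and less transcript in each cell cannot be told apart. In hypoxia the log2 fold change was −0.64 in unsorted and −0.91 in sorted cells, and neither was called. The second passed 1 with a pseudocount of 0.1, where it was −1.58 and was called lower, with quantile normalization (−1.19), and without SH replicate 3 (−1.04), SN replicate 1 (−1.001) or SN replicate 2 (−1.04).

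The prolyl 4-hydroxylase subunits did not share a pattern. P4ha1 had 93.4, 49.9 and 50.3 TPM in UN, 497, 527 and 553 in UH, 72.8, 63.5 and 67.6 in SN, and 591, 645 and 477 in SH. Hypoxic libraries were high and normoxic libraries low. Sorted and unsorted cells overlapped at both oxygen levels, in normoxia through UN replicate 1 alone. The ratio of means was 8.14 for UH over UN and 8.40 for SH over SN, with log2 fold changes of 3.07 and 3.04 (SE 0.205), while SN vs UN was 0.13 and SH vs UH 0.11. The last was −0.11 with median-of-ratios scaling. Without UN replicate 1, UH vs UN was 3.36 and SN vs UN 0.43.

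P4ha2 had 105, 158 and 154 TPM in UN, 1090.2, 1382 and 1294 in UH, 44.5, 39.6 and 51.0 in SN, and 608, 725 and 546 in SH. It was the most abundant member in UH and lay lower in sorted than in unsorted cells at both oxygen levels, with no overlap between any 2 groups. The log2 fold change was 3.18 for UH vs UN, 3.77 for SH vs SN, −1.59 for SN vs UN and −1.01 for SH vs UH (SE 0.170). The last value lay at the threshold, and the call was lost with quantile normalization (−0.81) and without SH replicate 1 (−0.99), SH replicate 3 (−0.91), UH replicate 2 (−0.93) or UH replicate 3 (−0.98).

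P4ha3 went the other way in unsorted cells. It had 32.8, 30.5 and 28.2 TPM in UN, 7.79, 9.30 and 12.3 in UH, 0.661, 0.990 and 1.26 in SN, and 1.06, 1.01 and 1.94 in SH. UN was high, UH lay below it, and the sorted groups were low and overlapped each other. The log2 fold change was −1.56 in UH vs UN, 0.24 in SH vs SN (−0.08 with quantile normalization), −4.01 for SN vs UN and −2.21 for SH vs UH (SE 0.203).

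Among the lysyl hydroxylases, Plod2, which acts on the telopeptide lysines used for the more stable crosslinks, showed the widest range. It had 55.6, 30.7 and 30.3 TPM in UN, 379.5, 490.1 and 567 in UH, 37.2, 39.3 and 38.6 in SN, and 700.1, 778 and 523 in SH. Hypoxic libraries were high in unsorted and sorted cells alike, with SH overlapping UH. SN overlapped UN through UN replicate 1 alone. The ratio of means was 12.3 for UH over UN and 17.4 for SH over SN, and the log2 fold changes were 3.63 and 4.06 (SE 0.228). In SN vs UN the value was 0.04, or 0.32 without UN replicate 1. The sign of this value also turned without UN replicate 2 (−0.09) or UN replicate 3 (−0.11), as did that of P4ha1 (−0.02 and −0.01).

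Plod1 had 20.2, 29.7 and 28.3 TPM in UN, 60.2, 67.6 and 69.5 in UH, 11.2, 11.7 and 12.7 in SN, and 34.8, 33.8 and 27.4 in SH. SN was low and UH high, and the ranges of UN and SH overlapped. The log2 fold change was 1.32 for UH vs UN, 1.35 for SH vs SN, −1.05 for SN vs UN and −1.02 for SH vs UH (SE 0.147). The calls against unsorted cells lay close to the threshold. The first was lost with median-of-ratios scaling (−0.94), quantile normalization (−0.92) and without UN replicate 2 (−0.95) or UN replicate 3 (−0.99), and the second without SH replicate 3 (−0.92) or UH replicate 3 (−0.98).

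Plod3, which also has glycosyltransferase activity, had 198, 237 and 191 TPM in UN, 476, 579 and 500.4 in UH, 143, 145 and 138 in SN, and 212, 184 and 238 in SH. Only UH stood apart as high, SN was the lowest group, and SH overlapped UN. The log2 fold change was 1.31 for UH vs UN and 0.56 for SH vs SN (SE 0.118), the second below the threshold for a call. It was −0.55 for SN vs UN and −1.29 for SH vs UH.

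Lox had 145, 128 and 128 TPM in UN, 516, 770.4 and 918 in UH, 0.176, 0.112 and 0.123 in SN, and 0.807, 0.746 and 0.529 in SH. All unsorted libraries were high and all sorted ones were below 1 TPM, with no overlap between any 2 groups. The ratio of means was 978 for UN over SN and 1058 for UH over SH, with log2 fold changes of −6.89 and −8.73 (SE 0.177). The hypoxic mean was 5.50 times the normoxic mean in unsorted cells and 5.08 times in sorted cells, whereas the log2 fold changes were 2.41 and 0.57, the pseudocount of 1 being larger than every sorted value. With a pseudocount of 0.1 the value in SH vs SN was 1.74, with 0.01 it was 2.27, and both were called higher.

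Loxl2 had 70.1, 16.3 and 14.8 TPM in UN, 378, 507 and 553 in UH, 0.220, 0.409 and 0.323 in SN, and 2.51, 2.16 and 1.61 in SH. Groups did not overlap, and UN replicate 1 was far above UN replicates 2 and 3. The ratio of means was 14.2 for UH over UN, or 30.8 without UN replicate 1, and 6.59 for SH over SN. The mean of UN was 106 times that of SN, or 49.0 times without that library, and the mean of UH was 229 times that of SH. The log2 fold change was 4.14 in UH vs UN (4.84 without UN replicate 1), 1.22 in SH vs SN, −4.35 in SN vs UN (−3.65 without it) and −7.27 in SH vs UH (SE 0.442). The call in SH vs SN was lost when any 1 of the 6 libraries of SN and SH was left out, where the log2 fold change lay between 1.13 and 1.34, with no filter, with the replicate block, with median-of-ratios scaling (1.21) and with quantile normalization (0.96).

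Loxl1, which is best known for elastin crosslinking, had 43.1, 15.1 and 13.5 TPM in UN, 29.9, 36.5 and 34.2 in UH, 2.50, 2.46 and 1.86 in SN, and 4.15, 3.87 and 2.67 in SH. UN overlapped UH through replicate 1 alone, and all sorted libraries lay below all unsorted ones. The log2 fold change was 0.66 in UH vs UN and was not called, whereas without UN replicate 1 it was 1.17 and was called higher, as it was at 1.002 with both scalings. In SN vs UN it was −2.74 (−2.23 without UN replicate 1), in SH vs UH −2.93 and in SH vs SN 0.47 (SE 0.338).

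The order of the members differed among the groups. In UN it ran from Serpinh1 (609 ± 135 TPM, SD, n = 3) and Plod3 (209 ± 24.7) through P4ha2, Lox, P4ha1, Plod2, Loxl2, P4ha3 and Plod1 to Loxl1 (23.9 ± 16.6), and neighbours from P4ha1 downward overlapped, as did P4ha2 and Lox. Without UN replicate 1 the means of Loxl2 and Loxl1 were 15.6 and 14.3 TPM, and Loxl2 came after P4ha3 (29.4) and Plod1 (29.0) in that order. In UH, P4ha2 led (1255 ± 149.9), and Lox, P4ha1, Plod3, Loxl2, Plod2 and Serpinh1 followed between 735 ± 203 and 385 ± 30.2 with each neighbour overlapping the next, before Plod1 (65.8 ± 4.91), Loxl1 (33.5 ± 3.33) and P4ha3 (9.79 ± 2.29). In SN, Plod3 led (142 ± 3.87), followed without overlap by P4ha1 (68.0 ± 4.66), P4ha2 (45.0 ± 5.72), Plod2 (38.4 ± 1.04) and Plod1 (11.9 ± 0.795), then by Loxl1 (2.27 ± 0.359), which overlapped Serpinh1. Serpinh1, P4ha3, Loxl2 and Lox took the last places between 2.13 ± 0.881 and 0.137 ± 0.0343. In SH, Plod2 (667 ± 131), P4ha2 (626 ± 90.7) and P4ha1 (571 ± 85.9) overlapped in the lead, Plod3 (212 ± 26.9), Plod1 (32.0 ± 3.98) and Loxl1 (3.56 ± 0.786) followed without overlap, and Lox (0.694 ± 0.146) and Serpinh1 (0.640 ± 0.264) overlapped at the end.

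Since TPM is per length, levels of different genes can be added within a family. The summed P4ha level was 234 ± 3.65 TPM in UN, 1791 ± 172 in UH, 114 ± 8.61 in SN and 1198 ± 173 in SH (SD, n = 3). P4ha1 made up 27.7 ± 11.0% of it in UN, 29.4 ± 1.86% in UH, 59.7 ± 2.88% in SN and 47.6 ± 1.43% in SH, so that P4ha1 had the larger part in SN while P4ha2 did in unsorted cells. The share of P4ha3 was 13.0 ± 1.05% in UN and 0.117 ± 0.0631% in SH. The summed Plod level was 274 ± 23.7, 1063 ± 128, 192 ± 3.59 and 911 ± 109 TPM in UN, UH, SN and SH. Plod3 made up 76.2 ± 3.72% of it in UN and 73.8 ± 0.960% in SN, and Plod2 reached 44.8 ± 4.47% in UH and 72.8 ± 5.98% in SH.

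The lysyl oxidase family, with Loxl3 and Loxl4 added, changed both in level and in makeup. It summed to 225 ± 68.9 TPM in UN, 1283 ± 302 in UH, 32.8 ± 4.84 in SN and 42.3 ± 4.74 in SH (SD, n = 3). Lox held 62.0 ± 12.5% of it in UN and 56.8 ± 2.67% in UH, but 0.412 ± 0.0408% in SN and 1.63 ± 0.201% in SH. Loxl4 held 4.82 ± 0.440% in UN and 1.32 ± 0.0848% in UH, and 57.6 ± 2.30% in SN and 66.1 ± 3.71% in SH, followed there by Loxl3 with 33.9 ± 3.79% and 19.0 ± 2.81%. In level, Loxl4 had 10.6 ± 2.18 TPM in UN, 16.8 ± 3.08 in UH, 18.8 ± 2.11 in SN and 27.9 ± 1.65 in SH.

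**Figure D2:**
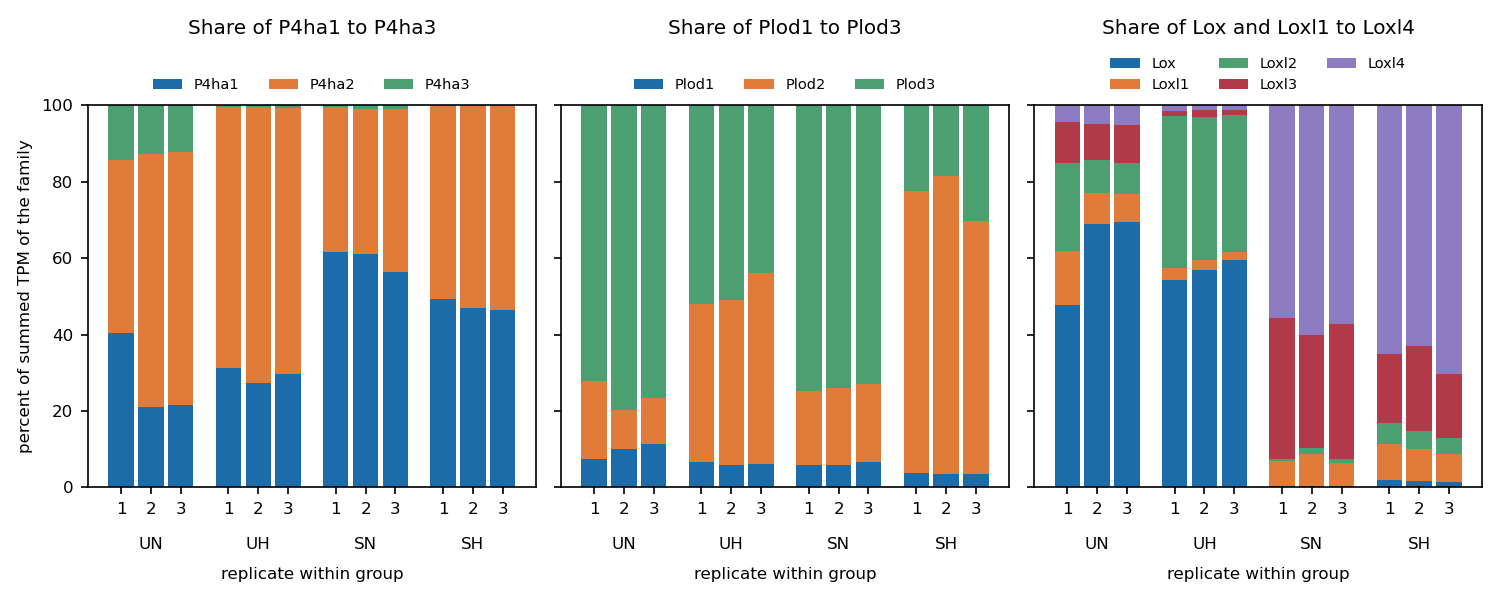
Percent of the summed TPM of each family contributed by each gene, with a stacked bar for each library (replicates 1 to 3 of UN, UH, SN and SH). Lox holds 62.0% of its family on average in UN and 0.412% in SN, where Loxl4 holds 57.6%, and Plod2 holds 72.8% of the Plod genes in SH.

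Levels were also set against the substrates, the summed TPM of 34 collagen chains. That sum was 5756, 2706 and 2475 TPM in UN, 6129.6, 9091 and 8161 in UH, 1445, 1311 and 1407 in SN, and 1586, 1529 and 1449 in SH. Fibrillar chains gave 2106 ± 1848 TPM of it in UN, 6603 ± 1304 in UH, 137 ± 14.0 in SN and 165 ± 4.15 in SH (SD, n = 3). The ratios below thus set the members against differing mixtures of chains. Per 100 TPM of collagen chains there were 8.00, 26.8 and 25.9 TPM of Serpinh1 in UN, 5.91, 4.62 and 4.58 in UH, 0.117, 0.119 and 0.224 in SN, and 0.0295, 0.0333 and 0.0652 in SH. Sorted libraries were low on this scale too, and UN replicate 1, with its high collagen sum, lay far below UN replicates 2 and 3. The P4ha sum per 100 TPM of collagen chains had a mean of 7.40 ± 2.95 in UN, 23.3 ± 2.50 in UH, 8.21 ± 0.291 in SN and 78.7 ± 9.80 in SH, and the Plod sum had 8.61 ± 3.37, 13.8 ± 1.22, 13.9 ± 0.937 and 59.8 ± 5.38. Per 100 TPM of P4hb, the shared subunit, the P4ha sum was 20.6 ± 2.38 in UN, 26.2 ± 1.91 in UH, 14.5 ± 1.62 in SN and 21.9 ± 1.59 in SH.

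The response to hypoxia was also compared between sorted and unsorted cells, as a difference of differences, (SH − SN) − (UH − UN). It is built from the fold changes behind the choice of members, so for all 10 it is a description with no test. Over all genes, 8.08% were called higher and 2.18% lower in this contrast. The median difference was −0.11 over the members and 0.25 over all genes. With median-of-ratios scaling the value over all genes was 0.02. Members moved down as well, such as Plod1 to −0.31 from 0.03 and Plod3 to −1.09 from −0.75. The −0.11 is therefore not to be set against 0.02. With that scaling, 53.5% of all calls in this contrast were higher, and with quantile normalization 50.9%, against 78.8% as deposited. Of the 1939 genes called, 88 had means below 0.1 TPM in both sorted groups and 38 in both unsorted groups. The difference for such a gene is close to the change in the other cell population alone.

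P4ha3 had a difference of 1.80 (SE 0.286), or 1.75 without UN replicate 1. In unsorted cells its hypoxic libraries lay below the normoxic ones, and in sorted cells, at 0.661 to 1.94 TPM, they overlapped. The differences of Lox and Loxl2 depended on the pseudocount. Lox had −1.84 (SE 0.250), or −1.90 without UN replicate 1, while the ratios of its hypoxic to its normoxic mean were 5.50 in unsorted and 5.08 in sorted cells. With a pseudocount of 0.1 the difference of Lox was −0.68, and with 0.01, a value added after the levels had been seen, it was −0.16. Loxl2 had −2.92 (SE 0.625), or −3.62 without UN replicate 1, beside ratios of 14.2 (30.8 without that library) and 6.59. With a pseudocount of 0.1 it was −1.80 and with 0.01 it was −1.502.

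Among the other 7 members, Plod3 had a difference of −0.75 (SE 0.167), or −1.09, past the thresholds for a lower call, with median-of-ratios scaling. P4ha1 had −0.02 (SE 0.289), Plod2 0.44 (SE 0.323) and Plod1 0.03 (SE 0.208). P4ha2 had 0.58 (SE 0.240), or 0.77 without UN replicate 1, and Loxl1 had −0.19 (SE 0.477), or −0.70 without that library. Serpinh1 had −0.27 (SE 0.294).

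Of 32 other genes of collagen processing, 30 were tested. In UH vs UN, 4 rose and 2 fell (4 and 3 without UN replicate 1), while 3 rose and 2 fell in SH vs SN. Against unsorted cells, 11 fell in SN and 10 fell in SH. By limma 0 of the 30 rose in these comparisons, while 2 and 3 were higher at an unadjusted p under 0.05. The median log2 fold change of the 30 was −0.09, −0.02, −0.77 and −0.49 in UH vs UN, SH vs SN, SN vs UN and SH vs UH. In the difference of responses 1 was called higher and 1 lower, or 2 and 2 without UN replicate 1. Over the alternatives 2 to 4 fell in UH vs UN, and 0 to 2 were called higher and 1 to 2 lower in the difference of responses.

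P4hb, the partner of the P4ha subunits, was the most abundant of them. It had 995, 1285 and 1153 TPM in UN, 6417, 7544 and 6543 in UH, 725, 728 and 917 in SN, and 5502, 6737 and 4357 in SH. Like those of P4ha1 and P4ha2, its hypoxic libraries were high in each cell population, and it rose by 2.58 in UH vs UN (SE 0.168, adjusted p = 4.12e-07) and by 2.79 in SH vs SN (adjusted p = 4.42e-07). Also in UH vs UN, the prolyl 3-hydroxylase gene P3h3 rose by 1.78 (adjusted p = 1.37e-06), and Pcolce2, a procollagen C-proteinase enhancer, fell (−1.56, adjusted p = 0.000109).

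Fkbp10, which encodes the collagen chaperone FKBP65, had the largest drop of the list in sorted cells, as Serpinh1 and Lox did among the members. It had 146, 312 and 259.9 TPM in UN, 147, 169 and 148 in UH, 0.515, 1.12 and 2.11 in SN, and 0.862, 1.29 and 0.725 in SH. The sorted libraries lay near 1 TPM and the unsorted ones above 100, with a log2 fold change of −6.73 for SN vs UN (SE 0.287, adjusted p = 1.62e-08) and −6.32 for SH vs UH (adjusted p = 3e-08). P3h4 fell by 4.03 in SN vs UN (adjusted p = 3.29e-08), and Creb3l1, a transcription factor of secretory cells, fell as well (−2.24, adjusted p = 2.08e-06).

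In the difference of responses, Pcolce, which enhances removal of the C-propeptide, was called lower (−2.15, SE 0.192, adjusted p = 4.29e-05). Its mean was 432 ± 93.5 TPM in UN, 624 ± 51.6 in UH, 282 ± 14.2 in SN and 92.4 ± 6.82 in SH (SD, n = 3). P3h2 was called higher (1.16, adjusted p = 0.0397), a call that was lost with no filter, with both scalings and without any single library other than UN replicate 1, UH replicate 3 or SH replicate 3, the adjusted p without a library lying between 0.0563 and 0.0977 where it was lost.

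**Figure D3:**
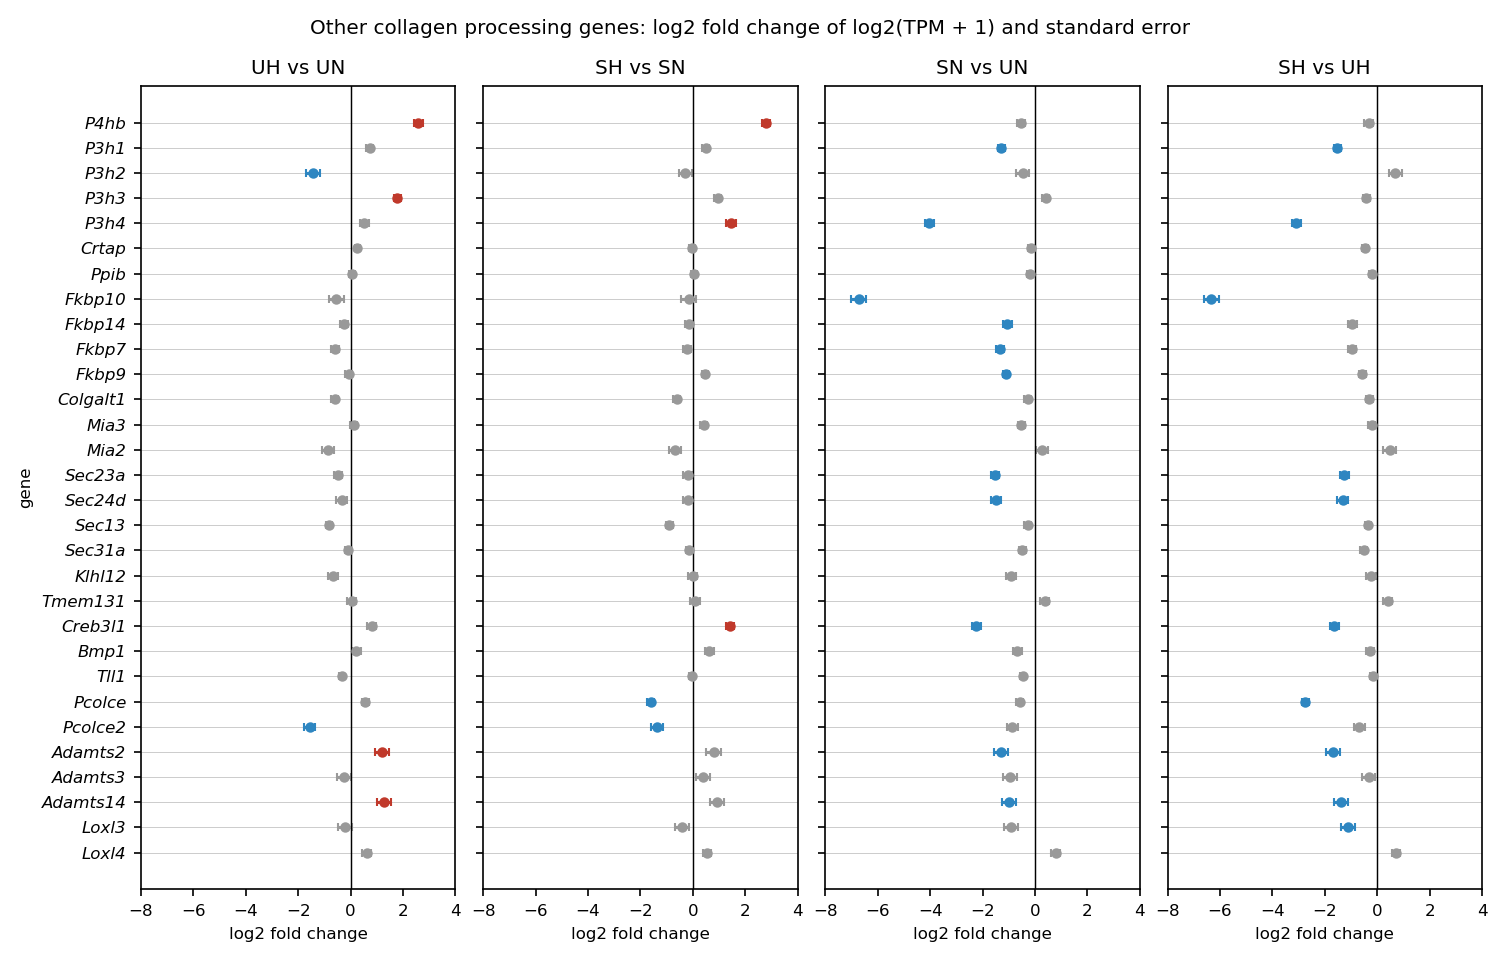
Log2 fold change on the log2(TPM + 1) scale with its standard error for each of 30 other collagen processing genes in 4 comparisons, with genes called higher in red, called lower in blue and others in grey. P4hb lies at 2.58 and 2.79 in the hypoxia comparisons, and Fkbp10 at −6.73 and −6.32 in the comparisons of sorted with unsorted cells.

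The substrates of the members were listed too. Of 9 fibrillar collagen chains tested of 11 listed, 7 rose in UH vs UN, 5 rose in SH vs SN, 5 fell in SN vs UN, and 1 rose and 6 fell in SH vs UH, with medians of 1.92, 1.25, −1.29 and −1.89. Col1a1 had 704 ± 418 TPM in UN, 3051 ± 542 in UH, 6.66 ± 0.987 in SN and 22.2 ± 5.85 in SH, with a UN mean of 464 TPM without UN replicate 1. Col3a1 fell by 7.62 in SN vs UN (adjusted p = 8.46e-06), from 785 ± 1018 TPM, and without UN replicate 1 it fell by 6.51 (adjusted p = 3.37e-08), from 197 TPM. In the difference of responses 2 were called higher and 2 lower, or 2 and 5 of 10 tested without UN replicate 1. Over the alternatives 0 to 1 rose in SH vs UH, and 1 to 2 were called higher and 1 to 5 lower in the difference of responses. Of 17 other collagen chains tested of 23 listed, 4 rose and 2 fell in UH vs UN, 3 rose in SH vs SN, 1 rose and 5 fell in SN vs UN, and 2 rose and 5 fell in SH vs UH. Col18a1, a basement membrane collagen, rose by 2.25 in SN vs UN (adjusted p = 1.81e-06), where 2 of these chains rose without UN replicate 1. In the difference of responses 3 of the 17 were called higher and 1 lower, or 3 and 3 without that library. With the alternatives 2 to 5 of them rose in UH vs UN, 3 to 6 rose in SH vs SN and 1 to 2 rose in SN vs UN, and 1 to 3 were called lower in the difference of responses. Of 13 elastic fibre genes tested of 15 listed, 2 rose and 5 fell in UH vs UN (3 and 5 without UN replicate 1), 1 rose in SH vs SN, 8 fell in SN vs UN (10 without it) and 5 fell in SH vs UH, and 4 were called higher and 1 lower in the difference of responses, or 4 and 2 without UN replicate 1. The elastic fibre gene called lower there was Fbln5, at 0 TPM in all sorted libraries, and of those called higher Fbn2 had means of 0.0239 TPM in SN and 0.0167 in SH. Their differences, −1.77 and 1.80, thus have the size of their values in UH vs UN (1.77 and −1.81) with the sign reversed, and say nothing of a response in sorted cells. Among the alternatives 2 to 4 elastic fibre genes rose and 3 to 5 fell in UH vs UN, 1 to 2 rose and 0 to 1 fell in SH vs SN, and 2 to 4 were called higher and 0 to 2 lower in the difference of responses.

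Known hypoxia-responsive genes were set beside the hydroxylases. Of 12 listed and tested, 10 rose in UH vs UN (11 without UN replicate 1), whereas 11 did in SH vs SN, with medians of 2.80 and 2.64. The log2 fold changes of P4ha1 (3.07 and 3.04), P4ha2 (3.18 and 3.77) and Plod2 (3.63 and 4.06) lay above these medians, and those of Plod1 (1.32 and 1.35), Plod3 (1.31 and 0.56) and P4ha3 (−1.56 and 0.24) below them. Higher hydroxylase levels in hypoxia were part of the choice of members, so these places are a description and nothing is concluded from them. Ankrd37 rose by 5.05 in UH vs UN (adjusted p = 4.17e-08). In SN vs UN 2 fell and in SH vs UH 3 fell, and Slc2a1 was called lower in the difference of responses (−1.60, adjusted p = 0.000715), or 1 higher and 2 lower without UN replicate 1. The alternatives gave 0 to 1 rises in SN vs UN, and 0 to 1 higher and 1 to 2 lower in the difference of responses.

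HSP47 belongs to the heat-inducible proteins, so heat shock genes and chaperones of the endoplasmic reticulum were listed beside Serpinh1. Of 15 heat shock genes tested, 5 fell in UH vs UN, 3 in SH vs SN and 1 in SH vs UH, and 1 was called lower in the difference of responses. By limma 0 were called in SN vs UN, where 6 were higher and 1 lower at an unadjusted p under 0.05, and the median was 0.30. Without UN replicate 1, 1 of the heat shock genes was called lower there. Serpinh1, chosen for its low level in sorted cells, had −7.62 in SN vs UN. The part of heat shock genes or chaperones in its level was not tested. Over the alternatives 2 to 6 heat shock genes fell in UH vs UN and 0 to 1 in SN vs UN, and 0 to 1 rose and 1 to 3 fell in SH vs UH. Of 13 chaperones of the endoplasmic reticulum tested, Hsp90b1 rose (1.61, adjusted p = 4.85e-07) and Hyou1 fell (−1.16, adjusted p = 4.17e-05) in UH vs UN, the latter call being lost with median-of-ratios scaling (−0.81) and quantile normalization (−0.93). By limma 0 of the 13 were called in SN vs UN, with 1 higher and 7 lower at an unadjusted p under 0.05, and the median was −0.30. In SH vs UH, SH vs SN and the difference of responses limma also called 0, with 2, 2 and 3 higher and 4, 5 and 1 lower at an unadjusted p under 0.05, and 1 was called higher in the last without UN replicate 1. In SH vs SN the alternatives gave 0 to 1 rises of these chaperones.

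Markers of mesenchymal and stellate cells, which make much of the collagen of liver, summed to 3323, 2302 and 2157 TPM in UN, 6838, 7190.3 and 6562 in UH, 1396, 1391 and 1348 in SN, and 3304, 3275 and 2762 in SH. Sorted libraries lay below unsorted ones at the same oxygen level. Of 20 listed, 17 were tested, of which 3 rose and 3 fell in UH vs UN, 2 rose and 4 fell in SH vs SN, 7 fell in SN vs UN, and 1 rose and 8 fell in SH vs UH. In the difference of responses 1 was called higher and 3 lower. Without UN replicate 1, with 16 tested, 2 were called higher and 6 lower there, and 1 fell in UH vs UN. For these markers the alternatives gave 1 to 3 rises and 1 to 3 falls in UH vs UN, 0 to 1 rises in SN vs UN and 1 to 2 rises in SH vs UH. They gave 1 to 2 called higher and 1 to 6 called lower in the difference of responses. Vim was the most abundant in every library, with means of 1396 TPM in UN, 5894 in UH, 1106 in SN and 3009 in SH. The means of the sums were 2594, 6864, 1378 and 3114 TPM. The rise of the sums in hypoxia is thus mainly that of Vim. Lrat was listed at 0 in every library. Pdgfra fell by 5.72 in SN vs UN (adjusted p = 1.07e-07), from 142 ± 53.1 to 1.59 ± 0.515 TPM, and Postn fell by 5.57 (adjusted p = 1.42e-08). The part of these cells in the levels of the members was not tested.

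The hepatoblastoma label was set against 15 hepatoblast and hepatocyte markers, which summed to 138.0, 312 and 331 TPM in UN, 226, 209 and 189 in UH, 174, 155 and 125 in SN, and 178, 189 and 108 in SH. Krt18 was the most abundant in 10 libraries and Dlk1 in UH replicates 2 and 3. Of 14 tested, 5 fell in UH vs UN (6 without UN replicate 1), 1 rose in SH vs SN, 1 rose and 8 fell in SN vs UN, 2 rose and 2 fell in SH vs UH, and 5 were called higher in the difference of responses, of which Gpc3 was below 0.1 TPM on average in both SN and SH. Hnf4a and Apob, also among them, had means of 0.263 and 0.214 TPM in SN and 0.108 and 0.153 in SH. Their differences, 1.79 and 1.79, mostly restate their values in UH vs UN (−1.97 and −1.87) with the sign reversed. Under the alternatives 0 to 1 rose and 0 to 1 fell in SH vs SN, 1 to 2 rose in SN vs UN, 2 to 4 fell in SH vs UH, and 3 to 5 were called higher in the difference of responses. Afp, the fetal liver marker, had 1.83 ± 0.469 TPM in UN, 1.22 ± 0.0663 in UH, 9.20 ± 0.919 in SN and 5.07 ± 2.06 in SH, and Hnf4a had 3.85 ± 1.86 TPM in UN and at most 0.263 ± 0.145 in the other groups. The part of these markers in the levels of the members was not tested.

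Biliary and epithelial markers summed to 2849.5, 3262 and 3029 TPM in UN, 1234, 1183 and 1212 in UH, 4876, 4293 and 4865 in SN, and 1017, 1178 and 1146 in SH, with Spp1 the most abundant in each. These sums mainly follow Spp1, whose means were 2832, 641, 4485 and 930 TPM in UN, UH, SN and SH. Krt19 differed from it, with means of 62.0, 481, 0.837 and 4.87 TPM. Of 7 listed, 6 were tested, of which 1 rose and 2 fell in UH vs UN, 2 rose and 1 fell in SH vs SN, 1 rose and 2 fell in SN vs UN, 2 rose and 1 fell in SH vs UH, and 1 was called higher in the difference of responses. Of these 6, the alternatives had 1 to 2 rise in SH vs SN, 0 to 1 rise in SN vs UN, 1 to 2 rise and 1 to 2 fall in SH vs UH, and 1 to 2 called higher and 0 to 1 lower in the difference of responses. Endothelial markers summed to 13.9, 14.1 and 15.2 TPM in UN, 26.8, 32.7 and 36.1 in UH, 8.35, 8.80 and 7.66 in SN, and 20.7, 20.9 and 15.4 in SH, with Egfl7 the most abundant in UN, Flt1 in UH, Esam in SH, and Tek or Esam in SN. Of 14 listed, 8 were tested, of which 1 rose in UH vs UN, 3 rose in SH vs SN, 1 rose and 1 fell in SN vs UN, 2 rose and 2 fell in SH vs UH, and 2 were called higher and 1 lower in the difference of responses. With the alternatives 1 to 4 rose in SH vs SN, 1 to 2 in SN vs UN and 2 to 5 in SH vs UH, and 1 to 2 were called higher in the difference of responses. Tek, the 1 that rose in SN vs UN, did so by 1.62. The sort was made on a reporter under the Tek promoter, so higher Tek in sorted cells follows from the selection and is no test. Egfl7 fell by 1.97 in SN vs UN (adjusted p = 1.29e-05). Blood cell markers summed to 10.1, 7.34 and 5.30 TPM in UN, 21.9, 22.8 and 21.6 in UH, 9.91, 12.3 and 14.7 in SN, and 63.5, 60.6 and 59.5 in SH, and Cd68 was the most abundant in every library but UN replicate 1, where Csf1r was. Of 8 listed, 5 were tested, of which 2 rose in UH vs UN and Cd68 alone rose in each of the other comparisons, its call in SN vs UN (1.10, adjusted p = 0.000577) being lost without SN replicate 3 (0.91). Among the alternatives 1 to 2 blood cell markers rose in UH vs UN, 1 to 2 in SH vs SN, 0 to 1 in SN vs UN and 1 to 2 in SH vs UH, where 0 to 1 fell, and 0 to 1 were called higher in the difference of responses. The part of these markers in the levels of the members was not tested.

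In the GENCODE annotation of the mouse genome build GRCm38 (mm10), Serpinh1 (ENSMUSG00000070436) is a protein-coding gene at chr7:99345376-99353239 on the minus strand, and P4ha3 lies on the same chromosome at chr7:100285520-100319699 on the plus strand. Lox (ENSMUSG00000024529) is at chr18:52516067-52529867 on the minus strand. Plod2 (chr9:92542223-92608428) and Loxl1 (chr9:58287738-58313186) share a chromosome at a distance. The remaining members are at chr10:59323296-59373304 (P4ha1), chr11:54100095-54131665 (P4ha2), chr4:147909753-147936767 (Plod1), chr5:136987019-136996648 (Plod3) and chr14:69609068-69695834 (Loxl2).

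Within 1 Mb of Serpinh1, 29 other genes were tested. In SN vs UN, 1 rose and 2 fell, beside 3.20% and 7.57% of all genes, and 6 were higher and 5 lower at an unadjusted p under 0.05. In SH vs UH, 3 rose and 4 fell, beside 7.65% and 5.35% of all genes, and 13 were higher and 5 lower at an unadjusted p under 0.05. The medians were 0.11 and 0.23. P4ha3 is itself within this window and was among those called lower in both. Wnt11 fell in both (−2.67 and −2.60), and Gdpd5, the nearest tested gene on the side of the Serpinh1 start, rose in both (1.77 and 2.66). Map6 (−1.59) and Gm4980 (−1.90) fell, and A630091E08Rik (1.26) and Rnf169 (1.25) rose, in SH vs UH. Gm4980 had means of 0.152, 2.83, 0.00969 and 0.0252 TPM in UN, UH, SN and SH. It passed the filter through UH, where it was high, so its fall carries no weight. A630091E08Rik had 0.112, 0.146, 0.0848 and 1.85 TPM, and its call rests on SH. Both are among the calls counted above. Within 1 Mb of Lox, 9 genes were tested. In SN vs UN, Sncaip (−2.71) and Ppic (−1.56) fell, and by limma 0 of the 9 were called in SH vs UH, where 2 were higher and 3 lower at an unadjusted p under 0.05. The medians were −0.08 and −0.07.

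The genes with the most similar patterns over the 12 libraries were taken by Pearson's r of log2(TPM + 1), as a description. For Serpinh1 they were Fscn1 (r = 0.998), Cyba (0.998) and Armcx3 (0.996). Fscn1 had means of 297 TPM in UN, 219 in UH, 6.86 in SN and 4.86 in SH. For Lox they were Timp3 (0.998), Fndc1 (0.996) and Nid1 (0.996), and Timp3 had means of 211, 1872, 1.02 and 1.86 TPM. For P4ha1 they were Plod2 (0.996), Ero1l (0.993) and Mgarp (0.992), and for Plod2 they were P4ha1, Hyal1 (0.995) and Mgarp (0.993). Ero1l had means of 15.2, 746, 15.2 and 751 TPM in UN, UH, SN and SH. The libraries fall into 4 groups, which these values share.

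Promoters of 6 members are in the RefSeq promoter table of build GRCm38.p6, which holds 250 bases before and 50 after a gene's start as RefSeq gives it: Serpinh1, P4ha1, P4ha2, P4ha3, Plod1 and Plod3. The remaining members are Plod2, Lox, Loxl1 and Loxl2. The core of the hypoxia response element was searched on both strands as ACGTG and, in a second form, as GCGTG, and parts of the heat shock element were searched as GAANNTTC and, in reverse order, as TTCNNGAA. Of 32851 promoters of this length, 19.62% held the first of these motifs, 32.39% the next, 7.86% and 8.52% the heat shock forms, and 43.77% held either hypoxia form. The promoters of members called higher in both hypoxia comparisons, as far as the table has them, and that of Serpinh1 are printed 5′ to 3′ on the strand of the gene, with both hypoxia forms and their reverse complements in capitals. P4ha1 (chr10:59323046-59323345, plus strand) has 1 match to the first hypoxia form and 2 to the second, P4ha2 (chr11:54100674-54100973, plus strand) has 2 of each in a window that lies inside the gene as GENCODE places it, Plod1 (chr4:147936727-147937026, minus strand) has 2 of the second only, and Serpinh1 (chr7:99353190-99353489, minus strand) has 1 of the first only. Of those not printed, Plod3 has 1 of the first and 3 of the second. Of the heat shock forms, Plod1 has 1 match to the first and P4ha2 has 1 to the second. In P4ha3 none of the 4 motifs was found, and neither heat shock form was found in Serpinh1, P4ha1 or Plod3, which says only that these letters are not in these windows. A match is a description and not a site of binding.
P4ha1: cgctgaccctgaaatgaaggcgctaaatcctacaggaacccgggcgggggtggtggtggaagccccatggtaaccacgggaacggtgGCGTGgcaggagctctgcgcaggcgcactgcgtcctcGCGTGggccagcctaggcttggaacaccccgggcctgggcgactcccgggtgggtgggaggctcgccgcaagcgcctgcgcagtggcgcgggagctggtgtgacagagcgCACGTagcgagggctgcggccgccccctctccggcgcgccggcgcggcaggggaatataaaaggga
P4ha2: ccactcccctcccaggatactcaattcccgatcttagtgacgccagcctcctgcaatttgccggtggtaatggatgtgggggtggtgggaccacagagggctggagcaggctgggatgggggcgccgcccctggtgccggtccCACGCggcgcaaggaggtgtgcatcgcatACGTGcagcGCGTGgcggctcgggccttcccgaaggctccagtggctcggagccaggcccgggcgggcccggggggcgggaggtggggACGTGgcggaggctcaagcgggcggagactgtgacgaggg
Plod1: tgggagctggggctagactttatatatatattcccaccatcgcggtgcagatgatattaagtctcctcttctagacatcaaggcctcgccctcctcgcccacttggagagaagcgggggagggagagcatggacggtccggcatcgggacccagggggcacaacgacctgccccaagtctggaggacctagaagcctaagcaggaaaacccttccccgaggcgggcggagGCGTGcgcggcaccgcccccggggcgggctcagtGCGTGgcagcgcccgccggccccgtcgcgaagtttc
Serpinh1: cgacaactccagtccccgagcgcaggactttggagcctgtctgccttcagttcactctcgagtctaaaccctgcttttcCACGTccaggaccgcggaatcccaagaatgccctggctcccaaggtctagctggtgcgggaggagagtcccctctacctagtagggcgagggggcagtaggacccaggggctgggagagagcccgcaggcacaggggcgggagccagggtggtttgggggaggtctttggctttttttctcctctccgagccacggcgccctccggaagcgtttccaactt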

How the data were processed

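RNA-seq of 12 BN1 libraries, 3 in each of 4 groups, was analysed from the gene table that the authors deposited as TPM, made with nf-core/rnaseq version 3.12.0 (build mm10 per the labels). TPM sum to 1000000 in each library and keep no depth. Members were the genes with the 10 names. Members and lists were chosen with earlier results of these data known. No p is given for members, since every comparison is built from values used in choosing them. Log2(TPM + 1) of the 18909 genes with a mean of at least 0.1 TPM was fitted with limma 3.58.1 in R 4.3.3 (a mean for each group, trended moderation, Benjamini-Hochberg adjustment over all genes tested), after the code had been tested on simulated data. Python 3.11.15 with pandas 2.3.3 was used for summaries. Coordinates came from GENCODE M21, which held 98.77% of 45706 identifiers. Named genes were all members, the 5 called other collagen processing genes with the largest change in each direction, 2 for each other list, called neighbours within 1 Mb, and the 3 genes most correlated with Serpinh1, Lox, P4ha1 and Plod2. Where a list held more, examples of them are given. Alternatives were other pseudocounts (0.1, and 0.01 added after the data had been seen), filters, scalings, fits, a replicate block, and each library left out.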

Additional observations from a re-analysis of the deposited data

Results flagged for a closer look

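The log2 change with hypoxia in sorted cells minus that in unsorted cells passed the thresholds of the limma fit for P4ha3 (1.80), Lox (−1.84) and Loxl2 (−2.92). These members were chosen on levels and hypoxia responses in the same libraries, so the differences are a description, carry no test and support nothing. P4ha3 lay between 0.661 and 1.94 TPM in the 6 sorted libraries. With a pseudocount of 0.1 the differences of Lox and Loxl2 were −0.68 and −1.80, and with 0.01 they were −0.16 and −1.502. Both were higher in hypoxia in both cell populations without overlap, by ratios of means of 5.50 in unsorted and 5.08 in sorted cells for Lox and of 14.2 and 6.59 for Loxl2. Without UN replicate 1 the ratio of Loxl2 in unsorted cells was 30.8, and its difference was −3.62.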

How the results depend on the processing

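Of 800 values of members under 21 alternatives, 37 changed their call and 0 of the called ones changed sign. Of 2196 values of other named genes, 2122 kept their call, 74 lost it and 0 turned. The members called lower in SH vs SN, 0 as reported, were 1 with pseudocounts of 0.1 and 0.01 and with quantile normalization, and 0 to 1 with a library left out. The members that passed the thresholds as lower in the difference of responses, a description, were 2 as fitted, 0 with pseudocounts of 0.1 and 0.01 and 3 with median-of-ratios scaling, where Plod3 passed. The sorted levels of Lox, all below 1 TPM, and of Loxl2, between 0.220 and 2.51 TPM, enter that contrast through the pseudocount.

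Other collagen processing genes called lower in UH vs UN were 4 with a pseudocount of 0.1 instead of 2. In the difference of responses those called higher, 1 as reported, were 2 with pseudocounts of 0.1 and 0.01, 0 with no filter, with median-of-ratios scaling and with quantile normalization, and 0 to 2 with a library left out. Those called lower, 1 as reported, were 2 with both scalings and 1 to 2 with a library left out. The cause was not tested.

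The difference of responses turned its sign for P4ha1 (−0.02 as reported), with 0.13 after quantile normalization and −0.32 to 0.13 with a library left out. For Plod1 (0.03) it was −0.31 with median-of-ratios scaling, −0.22 with quantile normalization and between −0.068 and 0.20 with a library left out. For Loxl1 (−0.19) it was 0.03 and 0.10 without UN replicate 2 or 3, and between −0.70 and 0.10 over the libraries left out. These values are a description, and the cause was not tested.

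Correlations of same-numbered residuals lay between −0.12 and 0.14. These values cannot decide whether same-numbered libraries shared a culture, which the labels do not say. With the replicate block, members called higher in UH vs UN were 7, as without it, and in SH vs SN 4 instead of 5 (Loxl2 was not called). The members called lower in SN vs UN were 7 and in SH vs UH 8 with the block. Unknown depth limits what can be said of levels below 1 TPM.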
